A study of Mus musculus with 12 samples.

Results

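The 1297 regions described here were coding exon peaks of the RNA-silencing protein AGO2 that were listed in mouse cerebella at postnatal day 15 (P15) and had no counterpart in the list of postnatal day 7 (P7). They were chosen by their measured presence in 1 list and absence from the other, that is, from the P15 list by 2 criteria: no overlap of 1 nt or more on the same strand with a P7 peak, and overlap with a coding segment but with no 3' UTR of a protein-coding transcript on that strand (GENCODE M21, mm10). They made up 25.1% of the 5173 peaks in the P15 list, 76.6% of its 1694 coding exon peaks and 34.5% of the 3755 peaks listed only at P15. Absence from the P7 list was thus the criterion that chose them and is no result, and values set against P7 peaks are descriptions without a test.

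All libraries came from homozygous conditional Spy3-Ago2 mice in which an AAV given at P0 carried Cre under the Purkinje cell promoter L7, so that a peptide-tagged AGO2 was made in the cells where L7 was active. Their genotype field reads WT. The tagged AGO2 was captured with HaloTag-SpyCatcher3 from whole cerebella, not from sorted cells, and untagged AGO2 of other cells was not the object of capture. The 12 libraries form 6 groups of 2, a miRNA, a target and an input group at each of P7 and P15; the P15 miRNA and target groups and the P7 target group are used here, and the animals behind each library are not given. Peaks carry no read number or height, because the score field of every entry is 0, so the depth behind a peak is unknown and a peak is only present or absent.

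AGO2 carries a miRNA and pairs it, mainly through nucleotides 2 to 8 of the miRNA (the seed), with matching sites in messenger RNA. The best known sites lie in 3' UTRs, while sites in coding sequence are read through by ribosomes and are generally reported to repress less. Purkinje cells send the only output of the cerebellar cortex. Between P7 and P15 their dendrites grow and receive synapses, and scaffold proteins such as the SHANK family organise those synapses.

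A second P15 list of 1624 peaks, deposited with target replicate 2 and called the replicate 2 list here, gives the only check in a list the selection did not use. The P15 list is named in the label of target replicate 1 only, and whether it pools both replicates is not stated. If it does, both lists hold reads of replicate 2 and the check is not independent. Of the 1297 regions, 38 overlapped a peak of the replicate 2 list on the same strand, or 2.93% (exact binomial 95% interval 2.08% to 3.999%, which covers counting error only, as do all intervals here). Among the 397 P15 coding exon peaks that were shared with P7, 55 did, or 13.9% (10.6% to 17.6%). Among the 2095 3' UTR peaks listed only at P15, 159 did, or 7.59% (6.49% to 8.81%). Among the 2551 coding exon peaks listed only at P7, which are not in the P15 list, 40 did, or 1.57% (1.12% to 2.13%). Nearly all of the coding exon regions are therefore seen in 1 list only, and each statement below is one about that list.

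To show what such regions look like, the central 30 bases of 3 regions that overlapped the replicate 2 list are given in transcript direction, all in lower case because no part of them is singled out. They lie in Bsn (presynaptic scaffold Bassoon, exon 3, chr9:108125846-108125875, minus strand), Pabpc1 (a poly(A)-binding protein, exon 9, chr15:36598998-36599027, minus strand) and Ppp1r17 (a phosphatase inhibitor made in Purkinje cells, exon 4, chr6:56026504-56026533, plus strand). All coordinates are of mm10.
Bsn: caggcagcatccaaggctgctgccaagcca
Pabpc1: gcatactatcctcctagccaaattgctcaa
Ppp1r17: aaggccaaatcaggcccagctcttcataac

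Seed matches were the next feature of interest, because they are how AGO2 is expected to find its sites. The mature sequences of 2 abundant P15 miRNAs (RefSeq, GRCm38.p6) are shown with the seed in capitals, followed by 30-base windows of regions that held an exact match to the seed followed by A, the 8 bases in capitals. The windows for miR-125b-5p lie in Shank3 (exon 21, chr15:89549288-89549317, plus strand), Ank1 (exon 10, chr8:23093821-23093850, plus strand) and Trio (exon 30, chr15:27824129-27824158, minus strand). Those for miR-138-5p lie in Hcfc1 (exon 17, chrX:73950192-73950221, minus strand) and Kcnd2 (exon 1, chr6:21216824-21216853, plus strand).
miR-125b-5p: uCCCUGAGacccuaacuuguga
Shank3: cCTCAGGGAagcccagcagcgagctgcccc
Ank1: ccacatggccgCTCAGGGAgaccacctcga
Trio: cattgagtCTCAGGGAgagctcatcctgca
miR-138-5p: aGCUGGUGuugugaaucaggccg
Hcfc1: gagacaggcacCACCAGCActgccactaca
Kcnd2: gagaatccccaCACCAGCAccatggccctg

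Other regions stopped at the end of an exon and were continued by a second region at the start of the next exon. The 30 bases across 4 such junctions show the last 15 bases of the upstream exon in lower case and the first 15 of the downstream exon in capitals. They join exons 5 and 6 of Bsn (chr9, bases 108109885 and 108108186), exons 15 and 16 of Shank3 (chr15, 89532219 and 89532329), exons 2 and 3 of Shank1 (chr7, 44312961 and 44313119) and exons 12 and 13 of Hcfc1 (chrX, 73952562 and 73952392).
Bsn: ggactaggtagccagGTGTCGGCGCTGCCA
Shank3: gacttcctcattgagGTGAACGGAGTGAAT
Shank1: gacttgcatcagacgAAATGCCTACGCTTC
Hcfc1: actcagatcatccagACCAAAGGACCCCTG

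A small set held the element TGTANATA, the sequence bound by Pumilio proteins, which are RNA-binding repressors. The 5 windows here, with the element in capitals, were chosen after their values were seen. They lie in Ptch1 (the hedgehog receptor, exon 15, chr13:63532663-63532692, minus strand), Cacng2 (the AMPA receptor auxiliary subunit stargazin, exon 4, chr15:77995640-77995669, minus strand), Map2k4 (a stress-activated kinase, exon 5, chr11:65712212-65712241, minus strand), Pank3 (a pantothenate kinase, exon 3, chr11:35777614-35777643, plus strand) and Arhgap5 (a GTPase-activating protein, exon 2, chr12:52519614-52519643, plus strand).
Ptch1: acaTGTATATAgtcacccagaaagcagact
Cacng2: tcgggatcatcgTGTATATAtcagccaatg
Map2k4: ataTGTATATAgtgtgttagatgacgttat
Pank3: aaagggcttgcTGTACATAgattccgtcag
Arhgap5: cgaaactcattTGTAAATAacactcaagga

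The regions fell in 566 genes, or 34.7% of the 1630 genes with an exon peak at P15, and they were unevenly spread. A single region was found in 355 of these genes, while 62 genes held 5 or more and Bsn held 42. The 20 genes with most regions, listed with ties by alphabet, held 282 of them (21.7%). In 4 of these 20 genes (Shank3, Camta2, Ank1 and Mapk8ip1) the P7 list had no coding exon peak at all. Among the 62 genes with 5 or more regions, 10 had none. Of the 566 genes, 233 had no P7 exon peak of any kind. Choosing regions by absence from the P7 list favours such genes, so these counts are descriptions. Because whole cerebella were lysed, more cells with tagged AGO2, more of an RNA per cell and more AGO2 on that RNA cannot be told apart.

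**Figure D1:**
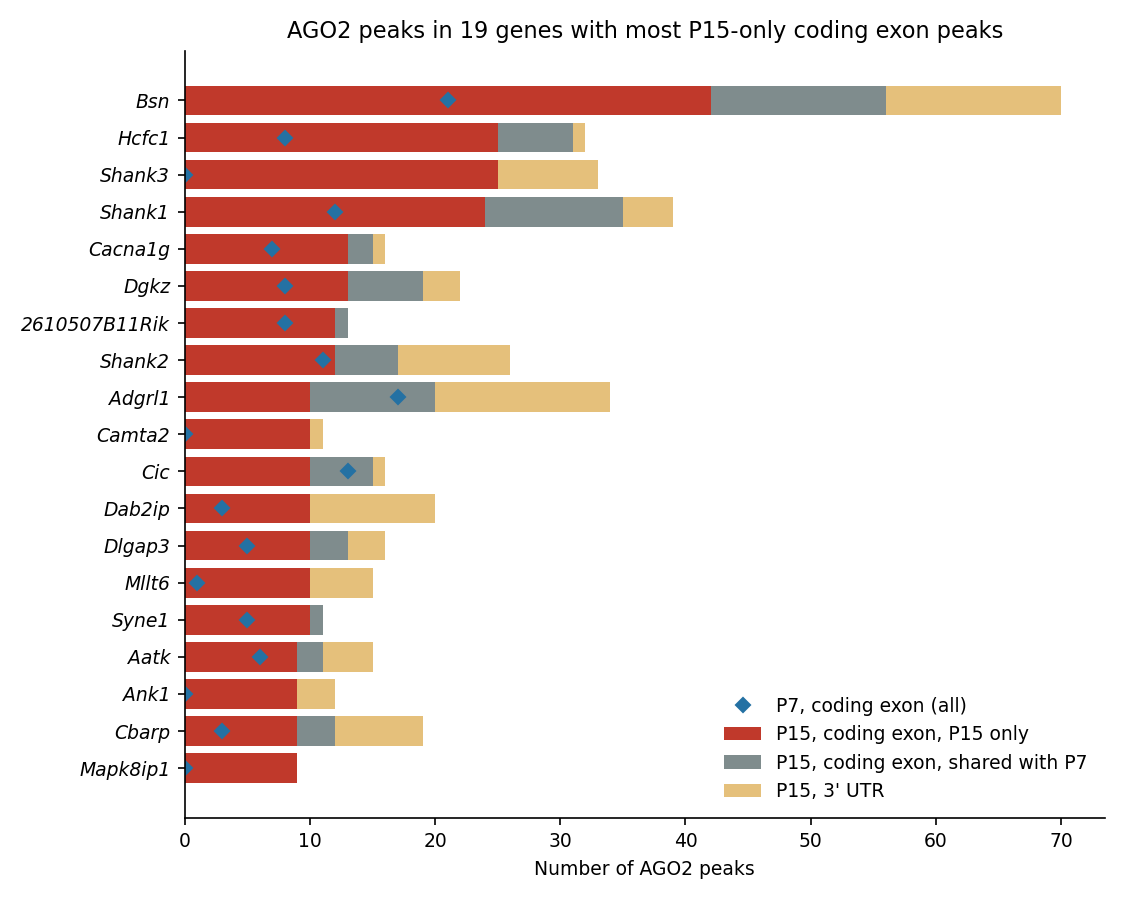
AGO2 peaks in 19 of the 20 genes with most coding exon peaks listed only at P15. Bars give the number of P15 peaks (x axis) of 3 kinds, coding exon listed only at P15, coding exon shared with P7, and 3' UTR; diamonds give all P7 coding exon peaks. Bsn stands first with 42 regions, and the diamonds of Shank3, Camta2, Ank1 and Mapk8ip1 lie at 0.

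Postsynaptic scaffold genes held 113 of the regions, more than any other of the 7 functional gene lists described here. The lists were chosen with earlier results of these data known, so their order is a description only. Of the 113 regions, Shank3, Shank1 and Shank2 held 25, 24 and 12. Of 36 genes in the postsynaptic list, 19 had an exon peak at P15 and 15 had a region. This is 78.9% beside the 34.7% of all genes with a P15 exon peak. Genes of this list were also longer, with a median coding length of 2976 nt beside 1696.5 nt for all genes with a P15 exon peak, and a longer coding sequence offers more room for a region. In the other functional lists this median ran from 2659.5 nt (RNA-binding and miRNA pathway) to 6909 nt (cytoskeleton and motors). Their shares below are likewise to be read beside 34.7% and 1696.5 nt. Over the 566 genes the Spearman correlation between coding length and number of regions was 0.33, given as a description across genes, which are not independent replicates.

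Shank3, which the study follows and whose product is a master scaffold of excitatory synapses, held 25 regions (ENSMUSG00000022623.16, chr15:89499623-89560261, plus strand). The P7 list had 0 peaks in its coding exons and 2 in its 3' UTR, where the P15 list had 8. The regions together covered 2312 nt, or 42.7%, of its 5415-nt coding sequence, the highest share among the 20 genes. They began at coding nucleotide 1652 in exon 11, and none lay before it. Exon 21, which holds 41.7% of the coding sequence in 2257 nt, carried 16 of the 25. The other genes the study follows, En2, Vash1 and Prag1, had 0 regions each. Their P15 3' UTR peaks numbered 9, 1 and 1.

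Shank1 and Shank2, the paralogs of Shank3, held 24 and 12 regions. In contrast to Shank3, Shank1 had 11 and Shank2 had 5 P15 coding exon peaks that were shared with P7. All 12 P7 coding exon peaks of Shank1 overlapped the P15 list. The regions covered 37.6% of the Shank1 and 15.8% of the Shank2 coding sequence. The widest of all the regions, at 298 nt, matched exon 2 of Shank1 in length and contained its start codon. Dlgap3, whose product links SHANK proteins to PSD-95, held 10 regions, 6 of them in exon 3.

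**Figure D2:**
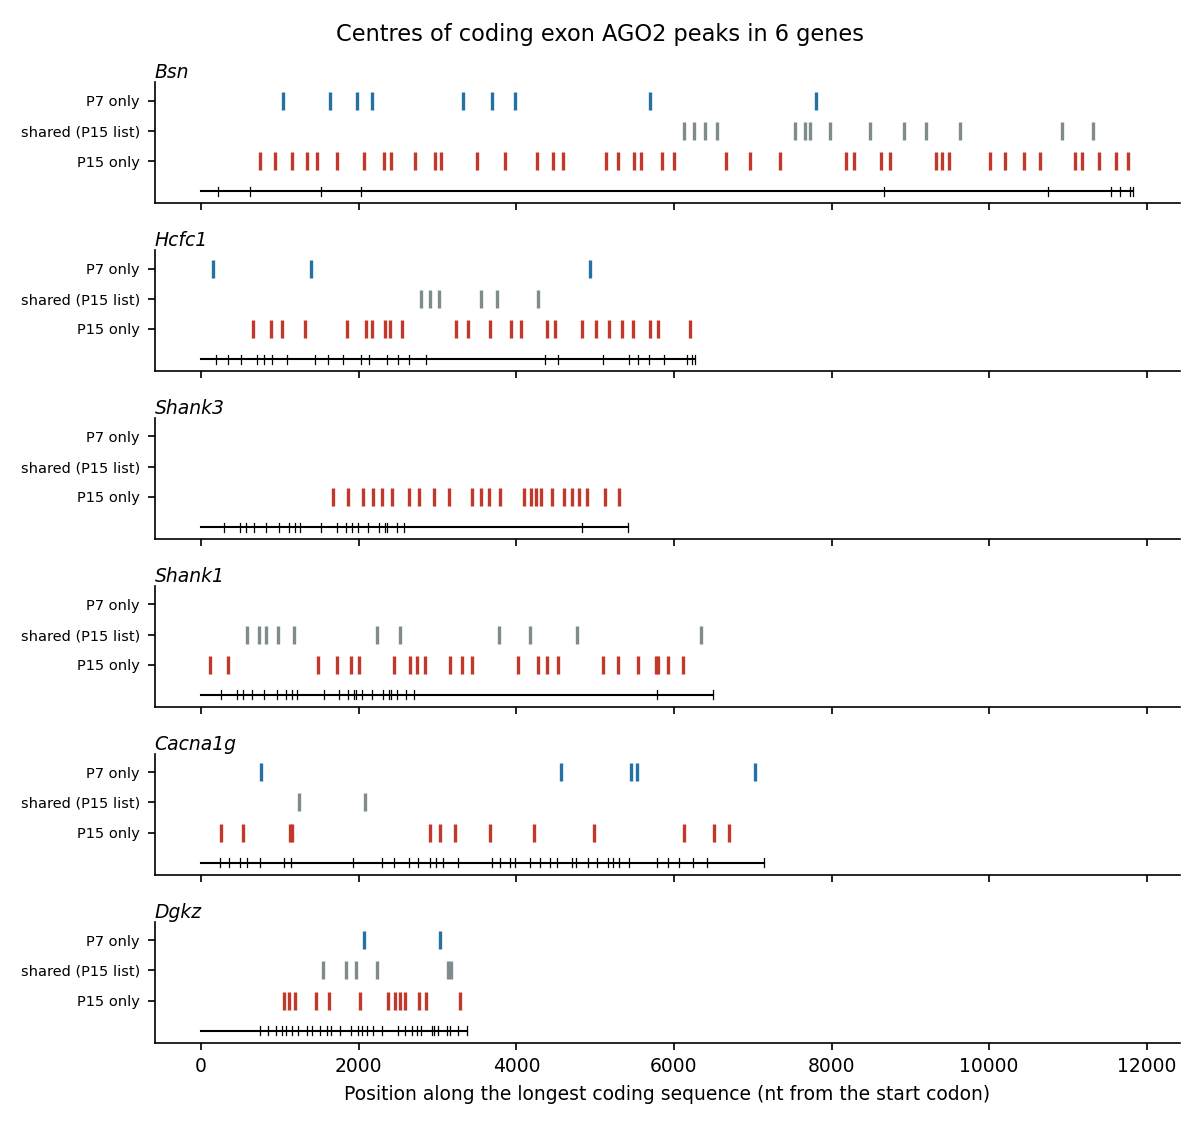
Centres of coding exon AGO2 peaks along the longest coding sequence (x axis, nt from the start codon) of the 6 genes with most regions. Ticks on the lowest line of each panel are exon ends; rows above give peaks listed only at P15, shared peaks of the P15 list and peaks listed only at P7. In Shank3 only the P15 row is filled, from nucleotide 1678 to 5299.

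Of 32 genes of the presynaptic active zone, 18 had a P15 exon peak and 12 a region (66.7%), with 78 regions in all and a median coding length of 4051.5 nt. Bsn (ENSMUSG00000032589.14, chr9:108096022-108190384, minus strand) accounted for 42 of the 78. They covered 29.0% of its 11826-nt coding sequence, ranged from 27 to 251 nt in width and had their centres from nucleotide 748 to 11762. Exon 5, with 56.2% of the coding sequence, held 23. The 14 shared peaks of Bsn all had their centre at nucleotide 6125 or beyond, whereas the regions and the 9 peaks listed only at P7 also lay before it. Adgrl1 (latrophilin, an adhesion receptor) held 10 regions beside 10 shared peaks, Nrxn2 (a neurexin) 7 beside 0, and Pclo (Piccolo, a relative of Bassoon) 6 in 15204 nt of coding sequence. In Pclo the density was 0.395 regions per kb, against 3.55 in Bsn.

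Among ion channels and receptors that shape Purkinje cell firing, 11 of the 21 genes with a P15 exon peak had a region (52.4%; 35 regions). Cacna1g, the T-type calcium channel, held 13, of which 1 in exon 22 overlapped the replicate 2 list. Cacna1a, the P/Q-type channel mutated in ataxia, held 8 regions, 0 shared coding exon peaks and 0 P15 3' UTR peaks. Itpr1, the inositol trisphosphate receptor of Purkinje cells, held 3 regions beside 4 shared and 16 P7 coding exon peaks.

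Signalling enzymes of the dendrite and synapse had a region in 9 of 15 genes with a P15 exon peak (60%; 34 regions). Dgkz, a diacylglycerol kinase, held 13 in 25.7% of its coding sequence. Adcy1, a calcium-stimulated adenylyl cyclase, held 8 beside 26 shared coding peaks and 42 P15 3' UTR peaks, and 1 of the 8, in exon 1, overlapped the replicate 2 list. Ppp1r9b (spinophilin) and Srcin1 (a Src inhibitor) held 3 each, fewer than their 9 and 10 P7 coding exon peaks.

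Cytoskeletal and motor genes had a region in 17 of 27 (63.0%, with 52 regions), against 228 P7 coding exon peaks over the list. The median coding length of the 27 was 6909 nt, beside 1696.5 nt for all genes with a P15 exon peak. P7 coding exon peaks also outnumbered regions in the chromatin (155), RNA-binding (145), signalling (70) and ion channel (55) lists. In the postsynaptic and presynaptic lists they numbered 83 and 77, beside 113 and 78 regions. Ank1, an ankyrin that ties membrane proteins to spectrin, held 9 and had 0 P7 coding exon peaks. Ank3 held 8 and Trio, a guanine nucleotide exchange factor, 6. Dync1h1, the dynein heavy chain, held 4 beside 16 P7 coding exon peaks.

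Chromatin and transcription genes had a region in 17 of 30 (56.7%; 61 regions). Hcfc1, a cofactor of histone-modifying complexes, held 25 of the 61, beside 6 shared peaks and 8 P7 coding exon peaks. The centres of the 25 were spread over its coding sequence from nucleotide 664 to 6208. The 3' UTR of Hcfc1 had 1 peak at each age. Arid1a, a chromatin remodelling subunit, and Ncor1, a co-repressor, held 7 each, and the acetyltransferase gene Crebbp held 3. Genes for RNA-binding proteins and the miRNA pathway had a region in 10 of 20 (50%; 27 regions). Prrc2b held 9 of them beside 22 shared and 37 P7 coding exon peaks, Prrc2a held 8, Pabpc1 held 2 and Srrm2 held 2.

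Other top genes belonged to none of the lists. Camta2, a calmodulin-binding transcription activator, held 10 regions with 1 P15 3' UTR peak. Mapk8ip1, a scaffold of the JNK pathway, held 9 with 0 P15 3' UTR peaks, and they covered 35.2% of its 2121-nt coding sequence. Cic (a transcriptional repressor), Dab2ip (a Ras GTPase-activating protein), Mllt6 (a chromatin-associated protein) and Syne1 (the nuclear envelope protein nesprin-1) held 10 each. The kinase gene Aatk and the calcium channel regulator gene Cbarp held 9, and 2610507B11Rik held 12. Per kb of coding sequence, Insyn1 (a component of inhibitory synapses; 6.85) and Cdk16 (a cyclin-dependent kinase; 5.38) exceeded Shank3 (4.62) among genes with 5 or more regions; both were named after their values were seen.

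The cell type label was read against marker genes. Of 26 Purkinje cell markers, 13 had a P15 exon peak and 5 a region, with 1 to 3 regions each and 7 in all, among them Itpr1, Arhgef33, Gad1 and Ppp1r17. Of 21 granule cell markers, 15 had a P15 exon peak and 4 a region, 5 of the 10 regions being in Fat2 and the others in Grin2c, Kcnd2 and Cntn2. Of 14 markers of Bergmann glia and astrocytes, 9 had a P15 exon peak and 2 a region, in Gdf10 and Ndrg2; the Ndrg2 region of 15 nt also has exact copies in transcripts of other genes. Markers of the oligodendrocyte lineage had a P15 exon peak in 4 of 14 genes and a region in 0, and of 9 molecular layer interneuron markers 2 had a peak and 1 (Cdh22) had 2 regions. None of the 16 markers of microglia, blood and vessels had a peak. For markers with a P15 exon peak, the share with a region was 38.5% for Purkinje cells and 26.7% for granule cells. It was 22.2% for Bergmann glia and astrocytes, 0% for the oligodendrocyte lineage and 50% for molecular layer interneurons. These shares rest on few genes, and that of all genes with a P15 exon peak was 34.7%. Markers of granule cells and glia were thus present beside those of Purkinje cells, and their part in the other regions was not tested.

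Most regions lay in transcripts that AGO2 also marked elsewhere. Of the 1297, 962 (74.2%, 71.7% to 76.5%) were in genes with an exon peak at P7, 881 (67.9%) in genes with a coding exon peak at P7 and 924 (71.2%) in genes with a 3' UTR peak at P15. Of the 566 genes, 333 (58.8%, 54.7% to 62.9%) had a P7 exon peak and 233 had none. Of all 1630 genes with a P15 exon peak, 810 had one at P7. A P15 3' UTR peak was found in 332 of the 566 (58.7%, 54.5% to 62.7%), a share not given here for all 1630 genes. Shares by region count genes with many regions more than once, and the same shares over all P15 peaks were not taken. In 18 of the 20 top genes the regions outnumbered the P15 3' UTR peaks, but these genes were chosen by their number of regions. Over all genes with a P15 exon peak there were 1297 regions and 2580 P15 3' UTR peaks. The distance from a region to the nearest P7 peak on the same strand had a median of 3663 nt (quartiles 417 and 57820). At the edge of the selection, 99 regions lay within 50 nt of a P7 peak and 19 within 10 nt. Regions of Bsn (chr9:108108035-108108187), Mllt6 (chr11:97673664-97673752) and Ski (chr4:155159842-155159957) abutted a P7 peak with a gap of 0 nt. Just outside it, P15 peaks of Cbarp, Sbk1 and Trio overlapped a P7 peak by 2 nt.

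The 38 regions that overlapped the replicate 2 list were in 38 different genes. They included Bsn (exon 3), Cacna1g (exon 22), Adcy1 (exon 1), Pabpc1 (exon 9), Ppp1r17 (exon 4) and Ndrg2 (exon 10), of which the region of Ppp1r17 was covered over all its 40 nt and that of Pabpc1 over 53 of 57 nt. In Cacna1g 30 of 105 nt were covered, and in Bsn 28 of 107 nt, so the 30 bases printed above for Bsn were not all covered. Of the 282 regions in the 20 top genes, 2 were among the 38, and 0 of the 25 in Shank3. At the level of genes, 124 of the 566 (21.9%, 18.6% to 25.5%) had an exon peak anywhere in the replicate 2 list. This share over all 1630 genes with a P15 exon peak is not given here, so 21.9% has no background value beside it.

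The regions had a median width of 51 nt (quartiles 38 and 73, range 15 to 298), close to the 50 nt of the 2551 coding exon peaks listed only at P7 and narrower than the 62 nt of shared peaks. Neighbouring regions of a gene were at least 21 nt apart in all 731 gaps. There were 81 gaps of 21 to 50 nt and 0 of 20 nt or less, so that stretches such as the 6642-nt exon of Bsn appear as rows of separate entries.

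Sequence could be read from an annotated transcript for 1066 regions; the rest reached past an exon. The centres of these 1066 lay at a median of 54.0% of the coding sequence (quartiles 29.2% and 75.7%), compared with 52.6% for shared peaks and 48.4% for peaks listed only at P7. With the coding sequence split into 10 equal bins, bins 1 and 2 held 8.82% and 6.94% of the regions and bin 7 held most, 11.9%. Bin 1 also takes centres before the start codon, the lowest at -5.83% of the coding sequence. Of all 1297 regions, 40 (3.08%) also overlapped a 5' UTR of a transcript. Exons of at least 1000 nt held 31.8% of the regions (29.0% to 34.7%), 40.5% of shared peaks (35.2% to 46.0%) and 24.5% of peaks listed only at P7 (22.6% to 26.4%).

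**Figure D3:**
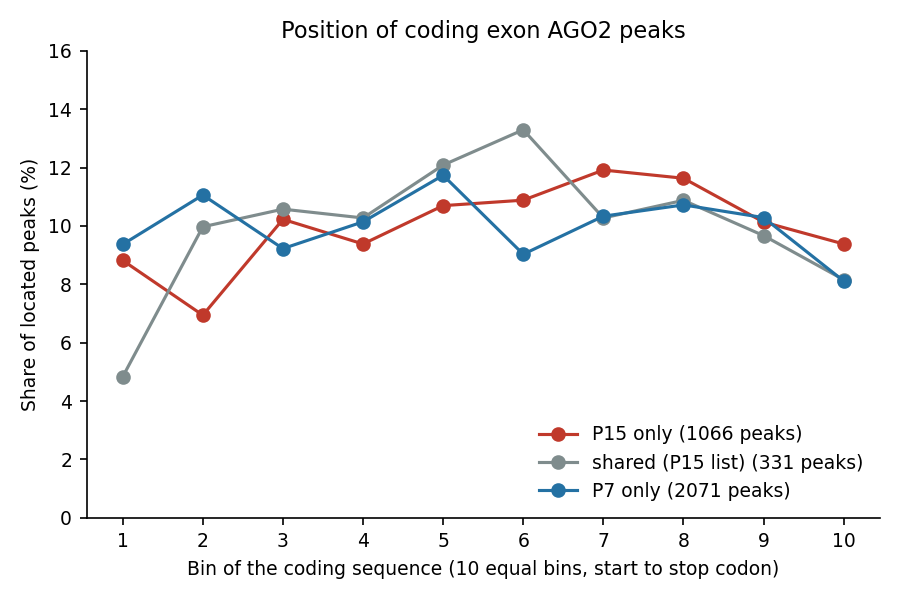
Share of located coding exon peaks (y axis, percent) in each of 10 equal bins of the coding sequence (x axis, from start to stop codon) for the 1066 regions listed only at P15, 331 shared peaks and 2071 peaks listed only at P7. The regions were fewest in bin 2 (6.94%) and most frequent in bin 7 (11.9%).

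Exon ends shaped many of the entries. An end within 2 nt of an exon end was found in 435 regions (33.5%, 31.0% to 36.2%), in 35.3% of shared peaks, in 37.1% of peaks listed only at P7 and in 2.58% of 3' UTR peaks listed only at P15. In all, 231 regions (17.8%, 15.8% to 20.003%) extended past their exon, but 220 of these did so by 1 nt, 165 towards higher coordinates and 55 towards lower ones, and 4 by more than 5 nt. In addition, 164 regions began 1 nt after the first base of an exon while 1 began exactly on it. The deposited intervals therefore seem to sit 1 nt above the annotated exon edges. Clipping the regions to their exon left 0.308% that crossed an exon end, and moving all of them by 1 nt left 5.09%.

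Across 46 junctions 1 region ended an exon and another opened the next, as in the 4 junction sequences shown above. These pairs held 91 regions (7.02%) in 34 genes, and among peaks listed only at P7 the same count was 93 pairs (7.21% of peaks). The paired exons were separated by introns of 84 to 16506 nt. Joined over the intron, a pair had a median width of 125.5 nt, and joining all pairs would leave 1251 regions. Dgkz and Shank1 had 4 pairs each, Ank1 had 3, and Hcfc1, Mapk8ip1, Mllt6 and Shank3 had 2. In Shank3 the regions over exons 15 and 16 were 125 and 133 nt wide, the lengths of those exons. None of the pairs overlapped the replicate 2 list.

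The regions were rich in G and C. Their median GC content was 58.5% (quartiles 52.9% and 63.9%), next to 58.0% for shared peaks, 55.8% for peaks listed only at P7 and 40.6% for 3' UTR peaks listed only at P15. Against windows of the same width directly upstream and downstream, the median difference was 1.72 percentage points (quartiles -3.03 and 6.74), so the level was mostly that of the surrounding coding sequence. The Shank3 regions with sequence (21 of 25) ran from 56.9% to 80.6%, with a median of 63.8%.

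Codons under the regions encoded more proline than the rest of the same coding sequences. Proline made up 8.48% of 20294 codons under the regions and 7.02% elsewhere, a ratio of 1.21, followed by alanine (1.14), arginine (1.12) and glycine (1.10), all with GC-rich codons. Asparagine (0.809), cysteine (0.842), lysine (0.852) and isoleucine (0.853) had the lowest ratios. Without the 10 genes with most regions proline lost its lead: arginine had 1.13, alanine 1.12 and proline 1.10. In shared peaks the ratio was 1.26 for arginine, 1.13 for proline and 1.12 for alanine. Peaks listed only at P7 differed most in glutamate, with a ratio of 1.21 there and 0.928 in the regions. Proline (0.984 there) and aspartate (1.13 there and 0.906 in the regions) followed. In shared peaks glutamate had 0.965 and aspartate 0.959. The hexamer GAAGAA in frame encodes a pair of glutamates. It was present in 41 of 1064 regions (3.85%) and in 56 and 43 of their upstream and downstream windows. In peaks listed only at P7 it was in 200 of 2060 (9.71%) and in 109 and 127 of their windows. Shared peaks held it in 22 of 330 (6.67%), with 12 and 13 in their windows. Codons of 1 gene are not independent, and no test was made.

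**Figure D4:**
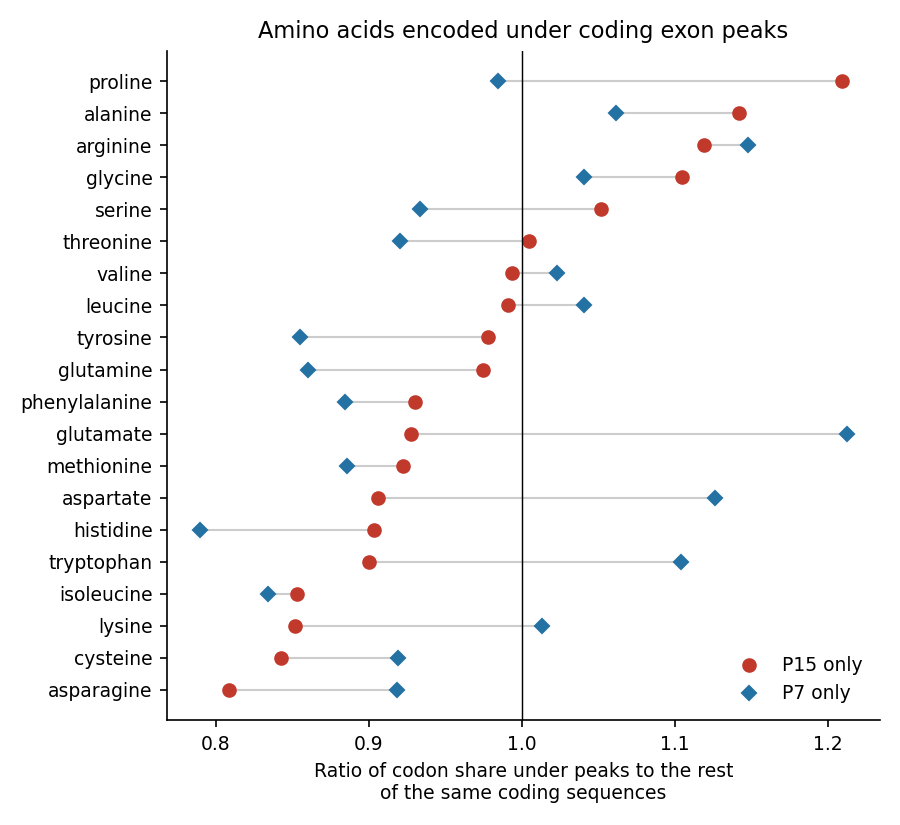
Ratio (x axis) of each amino acid's share of codons under coding exon peaks to its share in the rest of the same coding sequences, for peaks listed only at P15 (circles) and only at P7 (diamonds). Proline leads at P15 with 1.21 and glutamate at P7 with 1.21, where the P15 value is 0.928.

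The Pumilio element TGTANATA, searched on the transcript strand only, was in 11 of 1064 regions (1.03%, 0.517% to 1.84%), in 6 upstream windows and in 0 downstream windows. In shared coding exon peaks it was in 6 of 330 (1.82%) and 0 of either flank, and in peaks listed only at P7 in 2 of 2060 (0.0971%). In 3' UTR peaks listed only at P15 it was in 403 of 1695 (23.8%), with 27 and 28 in the flanks. The 11 regions were in 11 genes, 5 of them with a P15 3' UTR peak, and 0 overlapped the replicate 2 list. Of the matches 6 read TGTATATA, 3 TGTACATA and 2 TGTAAATA, and 1 of the 11 lay before the start codon. Their GC content had a median of 36.4% (23.3% to 61.7%), well under that of the regions as a whole, and 1 of the 11 reached the overall median.

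For none of the miRNA families searched did the share of regions with a seed match differ from that of the windows beside them by the test used. The P15 miRNA libraries held 169054 and 94132 counts, of which 62.6% and 65.2% belonged to miRNAs with a sequence in the RefSeq table; miR-124-3p (35.0% and 32.5% of counts), miR-30d-5p, miR-328-3p, miR-30b-5p and miR-185-5p are named only. The families searched, and every rank by abundance below, are those of miRNAs with a sequence in that table, so miR-124-3p, which had more counts than any of them, lies outside the test. Families of miRNAs with a shared seed and a mean of at least 100 CPM (counts scaled by the library total) numbered 129. For each, regions with an exact 7-nt match were compared with both flanking windows by an exact two-sided McNemar test in 1064 regions. The larger p was taken. It was set to the maximum where the share in regions was not above both windows or below both. Benjamini-Hochberg adjustment was made over all families. The share of families called was 0% (0 of 129 at an adjusted p under 0.05), 0 families had an unadjusted p under 0.05, and the lowest adjusted p was 1. Matches were more frequent in regions than in both flanks for 32 families and less frequent than in both for 29. By the rule for p, only these families could be called. Precision was limited by low numbers, since 14 families matched 12 or more regions and 88 matched 5 or fewer.

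The miR-29 family, the most abundant of those searched with 154749 and 193473 CPM, matched 8 regions, 13 upstream and 7 downstream windows. miR-9-5p, a neuronal miRNA, matched 3 regions against 6 and 5 windows. The miR-125 family matched 8 against 7 and 7, and let-7 3 against 8 and 6. miR-138-5p, a miRNA known from dendritic spines, had more matches at 22 regions, with 20 and 17 in the windows. Over the 20 most abundant families searched, which held 57.2% of counts, 112 regions held a match (10.5%, 8.75% to 12.5%), against 106 upstream and 106 downstream windows (9.96%, 8.23% to 11.9% each). The shares were 13.03% in shared coding exon peaks and 10.1% in peaks listed only at P7, each with flanks inside its interval.

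**Figure D5:**
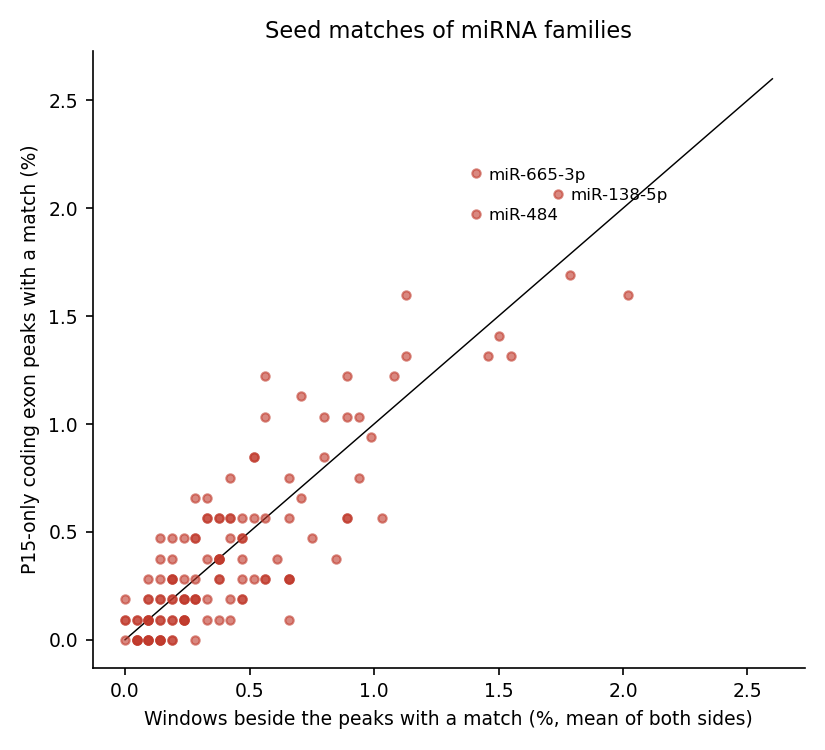
Share of the 1064 coding exon regions with a 7-nt seed match (y axis, percent) against the mean share of both flanking windows (x axis, percent) for each of 129 miRNA families. The line marks equal shares; points lie on both sides of it, and 0 families passed the test.

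Matches followed by A, as in the windows printed above for Shank3, Ank1, Trio, Hcfc1 and Kcnd2, numbered 20 over the 10 most abundant families searched, in 19 regions. miR-138-5p had 8 of them and miR-125b-5p had 3. The Shank3 match began at coding nucleotide 4236 of 5415, in a region of 40 nt, that of Ank1 at 1037 of 5721, that of Trio at 4445 of 9309, that of Hcfc1 at 3348 of 6270 and that of Kcnd2, a potassium channel gene of granule cells, at 537 of 1890. A region of Dyrk1a, a kinase gene named after its values were seen, held both a miR-127-3p and a miR-138-5p match within 41 nt (chr16:94686513-94686553, plus strand, exon 11). None of the 20 was in a region that overlapped the replicate 2 list. A sequence match is a description and not evidence of pairing.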

How the data were processed

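AGO2-bound RNA was analysed from P15 target libraries (as peak lists), P7 target libraries (as a peak list) and 2 P15 miRNA libraries. The deposited lists give position and strand, and the score in the authors' files is 0 throughout. The miRNA files hold the authors' counts per mature miRNA, not normalised; their names carry a word read as not collapsed by molecular identifier. The submitters' processing notes name the build mm10 and, with no role, Bowtie2 2.4.2, cutadapt 2.10, DESeq2 1.36.0, deepTools 3.1.3, UMI-tools and STAR 2.5.2a. The peak caller is not given in the sources used here.

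Peaks were placed on GENCODE M21 with the stop codon counted in the UTR. Sequence came from the transcript with the longest coding sequence that held the peak, miRNAs from RefSeq. CPM are counts scaled by library totals. Python 3.11.15, numpy 2.4.6 and scipy 1.17.1 were used. The seed test was tested on simulated data with planted sites. The members, gene lists and tests were chosen with earlier results of these data known. The text names the 20 genes with most regions, up to 4 per list, the study's 4 genes, and single peaks by width, replicate 2 overlap or seed match. Alternatives covered overlap rule, width, transcript, site type, windows, miRNA libraries and peak edges. Input and P7 miRNA libraries were not used here, and some genes that the rule names are not reported here.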

Additional observations from a re-analysis of the deposited data

How the results depend on the processing

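Of 47 alternative values, 43 kept the reported value within its error or within 1.5 times of a count. The number of regions was 1412 when coverage of most of a peak was needed to call it shared, 1199 when a P7 peak within 50 nt counted as shared, 1290 when most of the peak had to be coding, 1152 for widths over 30 nt and 1300 with the stop codon counted as coding. The share with a match to the 20 most abundant families searched rose to 27.2% with 6-nt matches (flanks 27.3% and 28.9%) and to 15.4% with regions extended by 20 nt (flanks 16.6% and 16.7%), since both search more sequence or shorter words. Ordering families without 1 of the P15 miRNA replicates gave 10.1% to 11.3%. The share crossing an exon end fell to 0.308% after clipping and to 5.09% after a 1-nt move, by construction of these alternatives, which were chosen after seeing the data, as was the stop codon alternative. Families called stayed at 0 under all 8 alternatives; at an unadjusted p under 0.05 there was 1 with 6-nt matches and 0 under the other settings. No paired analysis was possible because the peak lists carry no replicate values and no test across samples was made. Peak depth is unknown, so regions missing at P7 may have been below its limit of detection. Peak numbers run to 15560 at P15 and 12835 at P7, beyond the 5173 and 4884 peaks listed. In the replicate 2 list they run to 3027 for 1624 peaks, of median width 33 nt beside 51 nt in the P15 list. Whether a filter removed peaks from the lists, also at these regions, is not stated in the sources used here.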

Other observations

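Hexamers were ranked by their number in the regions relative to the mean of both flanking windows. Of 1070 hexamers with 20 or more occurrences, 13 had a ratio of 2 or more, and the median ratio was 1.10. CGCTGA came first with 24 occurrences in 24 genes against 11 and 6 in the windows (2.82), followed by GTGATG (26 against 11 and 9), GGTGAT (20 against 4 and 12) and TGTACA (32 against 15 and 11). GACGAC had 26 against 12 and 10, and TCGGGC had 20 against 8 and 9. Then came TGTACC with 22, CTCGAG with 25, ACGAGG with 22 and GAACTC with 22 occurrences. In peaks listed only at P7 the ratio of TGTACA was 0.712 and that of GACGAC 2.45. With so many hexamers ranked and no test made, these are values only.

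Chromosome 11 held 161 of the regions, chromosomes 2 and 7 held 134 each and the mitochondrial genome held 2. Exact copies in a transcript of another gene existed for 21 of 1066 regions (1.97%), among them 3 in Atn1 and 3 in Neurl1a, and their origin is uncertain. Coding segments of 2 genes were overlapped by 7 regions. TGGAAT, the first bases of the 3' adapter, began 0 to 5 nt after the end of 27 regions (2.53%), of 2.12% of coding exon peaks listed only at P7 and of 6.04% of shared ones.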
